A study of Rattus norvegicus with 10 samples.

Results

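The 10 arrays of this series fell into 4 whole mammary glands rich in skeletal muscle transcripts and 6 poor in them. They were chosen by a measured value, and an array was counted as muscle-rich when the log2 signal of Myl11, the fast skeletal regulatory myosin light chain, was above 10.5. The array carried 1 probe set for this gene. The muscle-rich arrays were casein 6, soy 147, soy 149 and soy 157. The muscle-poor arrays were casein 7, casein 10, casein 18, casein 20, soy 155 and soy 159. The number is the replicate number of the labels. Each array held RNA from whole mammary gland of female SD rats at postnatal day 21, and all had been given the purified rodent diet AIN-93G, with exposure starting at gestation day 4. The protein of the diet was casein for 5 arrays and soy protein isolate for the other 5. The labels give no genetic change and no drug for any group. They speak of RNA pools, so it is not known that each array is a separate animal, and the spread behind each p-value is that of these arrays and may be technical.

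The rat mammary gland lies in a subcutaneous fat pad, close to the cutaneous and body wall muscles, and a dissected gland can carry some striated muscle, lymph node, nerve or skin. Skeletal muscle is built of sarcomeres, in which thick filaments of myosin slide along thin filaments of actin, troponin and tropomyosin. Calcium released from the sarcoplasmic reticulum starts contraction. Fast fibres rely mostly on glycolysis and the phosphocreatine store and carry their own isoforms of myosin and troponin, while slow fibres rely more on mitochondria and carry others. In such whole-tissue samples more cells of a type and more RNA per cell cannot be told apart.

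The split was made from measured values, so the muscle genes in it are described here without a test. Myl11 had a log2 signal of 3.15 in soy 159, 3.17 in casein 18, 3.29 in casein 10, 3.42 in casein 20, 7.47 in casein 7 and up to 8.14 in soy 155. In the muscle-rich arrays it was 12.96 in soy 147, 13.76 in soy 149, 13.80 in casein 6 and reached 14.39 in soy 157. The array just inside the limit was soy 147 and the one just outside it was soy 155. Casein 7 and soy 155 stood between the muscle-rich arrays and the 4 lowest ones.

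The promoters of 4 muscle genes are shown because these genes separated the groups without overlap, and each holds at least 1 of the short motifs searched. Other genes without overlap, such as Pvalb, Actn3 and Tnnc2, held none of these motifs and are not shown. They run from 250 bases before to 50 bases after the start of the gene and are RefSeq sequences of assembly GRCr8, read 5′ to 3′ on the strand of the gene. Myl11 lies at chr1:191260039-191260338 (plus strand), Ckm at chr1:88189211-88189510 (plus strand), Acta1 at chr19:68784145-68784444 (minus strand) and Myh4 at chr10:52421898-52422197 (plus strand). Capitals mark CAGCTG, the E-box that myogenic factors bind, TATAAA on either strand, and the MEF2 consensus on either strand.
Myl11: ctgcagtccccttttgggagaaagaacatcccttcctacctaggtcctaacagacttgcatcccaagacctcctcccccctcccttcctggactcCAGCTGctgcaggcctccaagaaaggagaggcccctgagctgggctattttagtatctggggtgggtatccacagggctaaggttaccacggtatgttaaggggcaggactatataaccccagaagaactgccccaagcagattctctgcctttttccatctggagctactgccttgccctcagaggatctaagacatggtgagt
Ckm: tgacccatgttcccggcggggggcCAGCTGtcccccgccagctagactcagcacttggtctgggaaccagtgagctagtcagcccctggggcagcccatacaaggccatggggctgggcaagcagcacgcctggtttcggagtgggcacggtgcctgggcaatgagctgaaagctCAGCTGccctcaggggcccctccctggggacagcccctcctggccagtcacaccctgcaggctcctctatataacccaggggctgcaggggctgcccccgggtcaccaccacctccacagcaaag
Acta1: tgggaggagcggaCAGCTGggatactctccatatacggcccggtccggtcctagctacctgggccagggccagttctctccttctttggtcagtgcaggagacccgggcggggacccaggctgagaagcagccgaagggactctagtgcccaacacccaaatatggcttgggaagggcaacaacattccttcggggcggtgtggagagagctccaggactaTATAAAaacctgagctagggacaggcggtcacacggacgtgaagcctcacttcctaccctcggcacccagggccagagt
Myh4: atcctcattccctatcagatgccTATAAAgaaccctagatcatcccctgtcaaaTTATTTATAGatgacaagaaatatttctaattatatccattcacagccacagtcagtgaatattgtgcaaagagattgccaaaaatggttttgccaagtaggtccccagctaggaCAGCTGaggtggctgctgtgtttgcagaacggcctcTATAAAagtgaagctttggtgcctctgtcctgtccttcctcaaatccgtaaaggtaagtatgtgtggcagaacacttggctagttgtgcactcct
The E-box began 155 bases before the start in Myl11, 226 and 75 bases before it in Ckm, 237 in Acta1 and 81 in Myh4. TATAAA began 29 bases before the start in Acta1 and 227 and 45 before it in Myh4. The MEF2 consensus of Myh4 lay on the reverse strand and overlapped a reverse TATAAA there. CAGCTG was present in 32.9% of the promoters of muscle-list genes (46 of the 140 with a promoter in the table), against 15.1% of all 27457 promoters. For the MEF2 consensus the shares were 12.9% and 1.9%, and for TATAAA 17.1% and 14.3%. Among 361 promoters of genes on the lists of other cell types and processes, 16.3% held CAGCTG and 0.6% the MEF2 consensus. A match describes the letters in this window and is not a measured binding site.

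Both other markers followed Myl11. Myl1, the fast essential myosin light chain, was at 7.08 to 8.85 in the muscle-poor arrays and at 13.01 in soy 147, 13.62 in casein 6, 13.77 in soy 149 and up to 14.23 in soy 157. Pvalb, the calcium buffer parvalbumin of fast fibres, was at 3.02 to 7.13 in the muscle-poor arrays, with casein 7 (7.13) and soy 155 (6.97) highest. It was at 11.44 in soy 147, 13.03 in soy 149 and 13.65 in both casein 6 and soy 157. The groups did not overlap for either marker. Both are fast muscle genes like Myl11, so this describes the split and is no test of its label.

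**Figure D1:**
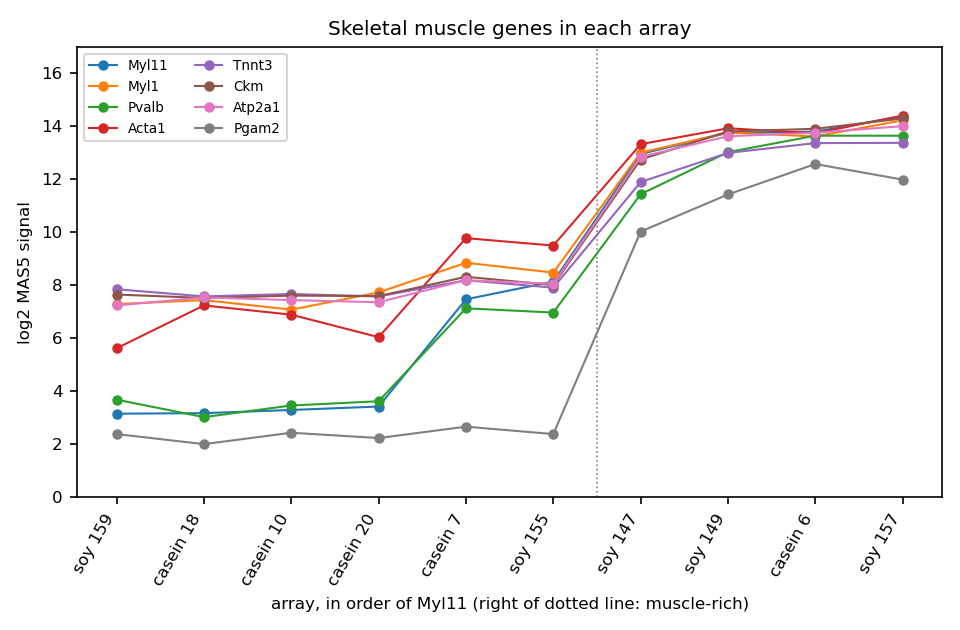
Log2 MAS5 signal (vertical axis) of 8 skeletal muscle genes in each of the 10 arrays (horizontal axis, in order of Myl11), 1 point per array, with lines joining the points of a gene. The 4 muscle-rich arrays lie to the right of the dotted line, and casein 7 and soy 155 lie above the other muscle-poor arrays for Myl11, Pvalb and Acta1 but not for Pgam2.

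Of 221 genes on 9 muscle lists, 176 were on the array and 107 had a probe set above the filter, a mean log2 signal of 7.47 over all arrays. For 93 of the 176 the muscle-rich arrays all lay above the muscle-poor ones, 47 of them below the filter. Over all 9520 tested probe sets, which unlike the 176 genes leave out those below the filter, that happened for 2.14%, and the reverse for 2.15%. Only Suclg2, a subunit of succinyl-CoA synthetase, lay the other way round without overlap, at 10.55 to 10.78 in the muscle-rich and 10.86 to 11.07 in the muscle-poor arrays. In the fit across all tested probe sets 131 passed the adjusted threshold, 1.38% of those tested, 124 of them higher in the muscle-rich arrays (1.3%) and 7 lower (0.0735%). Muscle-list probe sets made up 55 of the 124, and 0 of the 7. Since the groups were cut on a muscle gene, these counts describe the split and are not evidence for it.

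The thick filament differed by the largest amounts. Of its 16 genes on the array 12 were without overlap in the higher direction, against 2.14% of all tested probe sets. The median difference of its 6 tested genes was 4.79 on the log2 scale, against -0.05 over all tested probe sets. Myh4, the fastest myosin heavy chain, was at 0.85 in soy 159, 2.0 in casein 20, 4.34 in casein 18, 4.45 in casein 10, 6.13 in soy 155 and reached 6.68 in casein 7. It was at 11.56 in soy 147, 12.03 in soy 157, 12.18 in soy 149 and up to 12.52 in casein 6. Myom1, an M-band protein that crosslinks myosin, was at 2.35 to 3.05 in the muscle-poor and 8.62 to 10.70 in the muscle-rich arrays, and here casein 7 and soy 155 did not stand above the others. The brightest probe set annotated to Myh1, another fast heavy chain, was at 10.59 to 11.16 in the muscle-poor and 10.66 to 11.18 in the muscle-rich arrays. It did not follow the split, nor did the other probe sets of that name, with differences of -0.27, 0.14, 0.15 and 0.25. Whether these probe sets report skeletal Myh1 was not tested.

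Most thin filament and Z-disc genes showed the same order of groups. Without overlap in the higher direction were 11 of the 16 thin filament genes on the array and 23 of the 29 Z-disc genes. Over all tested probe sets this held for 2.14%. Acta1, skeletal actin, was at 5.62 in soy 159, 6.04 in casein 20, 6.89 in casein 10, 7.24 in casein 18, 9.50 in soy 155 and reached 9.78 in casein 7. In the muscle-rich arrays it was at 13.33 in soy 147, 13.74 in casein 6, 13.93 in soy 149 and up to 14.41 in soy 157. The median difference was 3.25 for the 10 tested thin filament genes and 1.82 for the 16 tested Z-disc and titin genes, of which 16 were higher on average. Of the 10 thin filament genes 7 were higher on average and 3 lower. The lower ones were the tropomyosins Tpm1 (-0.09), Tpm2 (-0.27) and Tpm3 (-0.37), which overlapped between the groups. Ttn, titin, the molecular spring of the sarcomere, was at 6.12 to 7.50 in the muscle-poor and 11.39 to 13.31 in the muscle-rich arrays. Cmya5, a large costamere-associated protein, had values of 2.93 to 3.68 and 9.63 to 11.39. Des, desmin, which smooth muscle also makes, had 8.56 to 8.97 and 10.00 to 11.99.

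Genes of calcium release and uptake were without overlap in the higher direction for 15 of the 21 on the array, against 2.14% of all tested probe sets. Of these 21 only 9 passed the filter. Atp2a1, the calcium pump of fast sarcoplasmic reticulum, was at 7.24 to 8.19 in the muscle-poor arrays and at 12.85 in soy 147, 13.63 in soy 149, 13.76 in casein 6 and reached 14.01 in soy 157. Ryr1, the calcium release channel, was at 3.29 to 6.17 and 9.61 to 11.66, and Cacna1s, the voltage sensor that opens it, at 0.85 to 3.41 and 7.15 to 9.76. These 3 genes placed every muscle-rich array above every muscle-poor one.

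Ckm, muscle creatine kinase, was at 7.52 to 8.32 in the muscle-poor and 12.75 to 14.30 in the muscle-rich arrays. Pgam2, the muscle phosphoglycerate mutase, was at 2.0 to 2.66 in the muscle-poor arrays and at 10.03 in soy 147, 11.43 in soy 149, 11.99 in soy 157 and up to 12.58 in casein 6. Its difference of 9.16 was the largest printed here, and casein 7 and soy 155 (2.66 and 2.38) lay with the other muscle-poor arrays. The 22 tested genes of glycolysis, glycogen and phosphocreatine had a median difference of 0.67, and the 21 of muscle mitochondria 0.25. Of these 21, 5 were without overlap in the higher direction, against 2.14% of all tested probe sets. Cox8b, a heart and muscle form of a cytochrome c oxidase subunit, had 2.51 to 3.86 against 9.02 to 11.73.

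The 14 tested genes of the sarcolemma and dystrophin complex had a median difference of 0.36, the 4 of the neuromuscular junction 0.07 and the 6 myogenic regulators 0.55. Over all genes on the array (22, 12 and 11), those below the filter included, the medians were 0.87, 0.43 and 0.88. Chrna1, the alpha subunit of the muscle acetylcholine receptor, was at 6.89 to 7.38 in the muscle-poor and 7.54 to 7.85 in the muscle-rich arrays. Myod1, a myogenic transcription factor, was at 1.49 to 4.71 and 6.15 to 8.23, and Myog, which drives terminal differentiation, at 6.56 to 7.26 and 7.43 to 8.87. Mstn, the growth inhibitor myostatin, had 2.89 to 3.55 and 5.52 to 6.92. The groups did not overlap for these 4 genes, but most genes of these lists did overlap. Without overlap in the higher direction were 7 of the 22 sarcolemma, 2 of the 12 junction and 5 of the 11 myogenic genes. Over all tested probe sets this held for 2.14%. The tested junction genes Dok7 (0.74) and Agrn (-0.17) overlapped, as did the myogenic genes Igf2 (0.59) and Cdkn1c (0.52).

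The muscle-rich arrays were not copies of each other. Over the 93 muscle-list genes without overlap, casein 6 was the highest muscle-rich array for 77, soy 157 for 12, and soy 147 and soy 149 for 2 each. Soy 147 was the lowest for 81 and casein 6 for 0. Spearman coefficients over the tested probe sets were 0.878 to 0.944 between muscle-rich arrays (median 0.896) and 0.94 to 0.968 between muscle-poor ones (median 0.958), and the pairs share their scaling and probe sets. Pairs across the groups had 0.851 to 0.941 (median 0.897).

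Some slow fibre genes separated casein 6 from the other muscle-rich arrays. Tnnc1, the slow and cardiac troponin C, was at 6.00 to 6.63 in the muscle-poor arrays, 6.70 in soy 157, 6.83 in soy 147 and reached 7.24 in soy 149, and at 9.89 in casein 6. Its fast partner Tnnc2 was at 12.48 in soy 147, 13.42 in soy 149, 13.60 in casein 6 and up to 13.77 in soy 157. For this pair of troponins soy 157 was the highest array for the fast form and the lowest muscle-rich array for the slow one. Myh7, the slow myosin heavy chain, was at 2.14 to 3.47 in the muscle-poor arrays, 4.38 in soy 147, 4.53 in soy 157, 5.97 in soy 149 and reached 7.72 in casein 6. Myl3, the slow essential light chain, was at 6.68 in soy 147, 6.92 in soy 157, 8.12 in soy 149 and up to 9.93 in casein 6, above 5.30 to 6.17 in the muscle-poor arrays. Both slow myosin genes gave the order casein 6, soy 149, then soy 157 and soy 147, which is also the order of the fast heavy chain Myh4.

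Soy 157 stood apart for other genes too. Myoz2, a Z-disc protein of slow fibres that binds calcineurin, was at 1.63 in soy 157 and at 6.25 in soy 147, 7.79 in soy 149 and reached 9.56 in casein 6, against 0.38 to 1.38 in the muscle-poor arrays. Myh2, the oxidative fast heavy chain, was at 7.04 in soy 157 and at 10.66, 11.85 and 12.62 in soy 147, soy 149 and casein 6, against 3.54 to 5.75. Sln, sarcolipin, an inhibitor of the calcium pump, was at 6.34 in soy 157, 8.83 in casein 6, 9.75 in soy 149 and up to 10.32 in soy 147, against 4.73 to 6.13. In soy 157 these 3 genes lay nearest to the muscle-poor arrays, although Myl11, Myl1, Acta1, Ckm and Atp2a1 were highest there. Mb, the oxygen store myoglobin, was at 7.77 in soy 147, 7.95 in soy 157, 8.69 in soy 149 and reached 10.76 in casein 6, against 3.29 to 5.20.

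**Figure D2:**
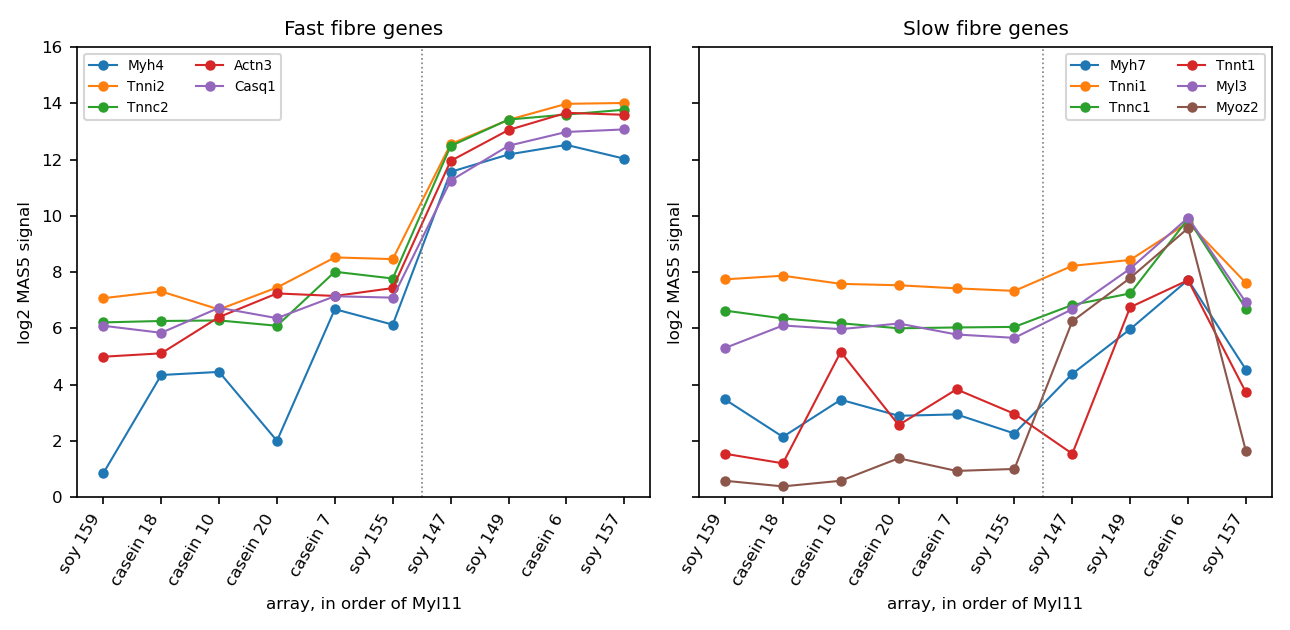
Log2 MAS5 signal (vertical axes) of 5 fast fibre genes (left) and 6 slow fibre genes (right) in the 10 arrays (horizontal axes, in order of Myl11), 1 point per array and gene, with the muscle-rich arrays right of the dotted line. The fast genes are high in all 4 muscle-rich arrays, whereas the slow genes peak in casein 6, with Tnnc1 at 9.89 there and 6.70 in soy 157. Signals of different probe sets are not comparable as levels.

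Casein 7 and soy 155 stood above the other muscle-poor arrays for a minority of the muscle genes. They were both above the other 4 muscle-poor arrays for 18 of the 93 genes (19.4%), against 629 of 8004 tested probe sets on no muscle list (7.86%). The 93 genes include Myl11 itself and 47 genes below the filter, whereas the 8004 lie above it. Pgam2, Myom1 and Cox8b did not show this order. Tnnc2 was at 8.01 in casein 7 and 7.77 in soy 155 and at 6.09 to 6.28 in the other 4. Tnni2, fast troponin I, was at 8.52 and 8.46 against 6.67 to 7.45.

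Genes on no muscle list were then set against the split. The fit used limma over all 9520 tested probe sets, with Benjamini-Hochberg adjustment. A call says that the mean of a gene differed between the muscle-rich and muscle-poor arrays, not that the gene followed the level of Myl11 array by array. Since the arrays were sorted by a measured gene, a call is not an independent test of any treatment. Of 8004 such probe sets with 1 named gene, 49 were called higher in the muscle-rich arrays (0.612%), for 47 genes, and 6 lower (0.075%). The filter used the mean over all 10 arrays. A gene low in 1 group could pass it through high values in the other, and its p-value is then no independent support. Without casein 6 and soy 149 the counts were 27 and 8, without casein 7 and soy 155 they were 23 and 2, and among the soy arrays alone 11 and 1. Leaving out soy 157 gave 130 lower calls, and leaving out soy 147 gave 92 higher and 82 lower ones.

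Many genes called higher are known from striated muscle as background, although the lists did not hold them. Eef1a2, the form of translation elongation factor 1 alpha found in muscle and neurons, was at 7.42 in soy 159, 7.15 in casein 18, 7.27 in casein 10, 7.28 in casein 20, 7.49 in casein 7 and 7.07 in soy 155. It was at 10.22 in soy 147, 11.29 in soy 149, 11.48 in soy 157 and up to 12.76 in casein 6. The difference was 4.16 ± 0.35 (SE, n = 4 and 6, limma adjusted p = 1.9e-05), and unlike Myl11 it did not set casein 7 and soy 155 above the other muscle-poor arrays. Klhl31, a kelch-like protein of muscle, was at 5.12 to 6.44 and 9.0 to 10.72, a difference of 4.08 ± 0.32 (limma adjusted p = 1.2e-05). Apobec2, the muscle member of a cytidine deaminase family, was at 6.44 to 7.21 and at 9.30 in soy 157, 10.27 in soy 147, 10.65 in soy 149 and reached 11.53 in casein 6, a difference of 3.78 ± 0.33 (limma adjusted p = 2.5e-05). These genes were without overlap, and for Apobec2 soy 157 was the lowest muscle-rich array.

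Membrane proteins of the sarcoplasmic reticulum and its junctions followed. Tmem38a, a cation channel of that membrane, differed by 3.31 ± 0.34 (limma adjusted p = 0.00011), Sypl2, a triad junction protein, by 3.94 ± 0.50 (limma adjusted p = 0.00082), and Dhrs7c, a reductase of that membrane, by 3.96 ± 0.37 (limma adjusted p = 4.9e-05). Fitm1, which takes part in lipid droplet formation, differed by 3.63 ± 0.31, with 6.20 to 6.63 in the muscle-poor and 9.02 to 11.12 in the muscle-rich arrays (limma adjusted p = 1.9e-05). Ion channel subunits were among the smaller differences, with Scn4b, a sodium channel beta subunit, at 1.93 ± 0.25 and Kcnc4, a voltage-gated potassium channel, at 1.46 ± 0.22. Both had a muscle-poor mean below the filter (7.43 and 7.04) and were tested only through the muscle-rich arrays.

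Actin-binding and regulatory genes were also called. Synpo2l, a Z-disc protein, differed by 2.18 ± 0.26 and Nexn, nexilin, an actin-binding Z-disc protein, by 2.10 ± 0.27 and, in its dimmer probe set, by 2.17 ± 0.31. Rbm24, a splicing regulator of striated muscle, differed by 2.55 ± 0.37, Ddit4l, an inhibitor of mTORC1 signalling, by 2.52 ± 0.28, and Sh3bgr, an SH3-binding glutamate-rich protein, by 3.0 ± 0.39. Pde4dip, the Golgi and centrosome protein myomegalin, differed by 1.92 ± 0.24. Each of these had a limma adjusted p of 0.0027 or less. All but Pde4dip had a muscle-poor mean below the filter and were tested only through the muscle-rich arrays. Amot, angiomotin, a scaffold that binds YAP and is known from endothelium and epithelium, was at 7.64 to 8.13 in the muscle-poor arrays and at 9.18 in soy 157, 9.32 in soy 147, 9.90 in soy 149 and up to 10.78 in casein 6. Its difference was 1.93 ± 0.26 (limma adjusted p = 0.0012).

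Amot, Apobec2, Ddit4l, Dhrs7c, Eef1a2, Fitm1, Klhl31, Scn4b, Sypl2 and Tmem38a, 10 of the 49 genes whose brightest probe set was called, passed under each alternative that tested them, the soy arrays alone included. Among these 10, only Amot and Tmem38a had a muscle-poor mean above the filter (7.87 and 7.56). The others were tested only through their high values in the muscle-rich arrays. Without casein 6 and soy 149 a call was kept by 23 of the 49, and without casein 7 and soy 155 also by 23.

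The genes named in this paragraph were chosen after their values were seen, from the smaller differences that were called. Transport and fuel genes among them were Slc16a3, the lactate exporter, with 1.71 ± 0.34, Slc6a8, the creatine transporter, with 0.69 ± 0.13 in a probe set that was not its brightest, and Pgm1, phosphoglucomutase, with 1.36 ± 0.29. Slc25a12, the aspartate-glutamate carrier of mitochondria, differed by 0.83 ± 0.18 (limma adjusted p = 0.048). Tfrc, the transferrin receptor that takes up iron, was at 10.75 to 11.24 in the muscle-poor arrays and at 11.30 in soy 157, 11.93 in soy 149, 12.01 in soy 147 and reached 12.29 in casein 6. Its difference was 0.92 ± 0.17 (limma adjusted p = 0.014), and soy 157 exceeded soy 155 by only a small step. The kinase Dmpk, the gene of myotonic dystrophy, differed by 1.03 ± 0.17, Cacna2d1, an auxiliary calcium channel subunit, by 1.35 ± 0.22, and Mustn1, a small muscle and skeletal protein, by 0.85 ± 0.13. Tuba4a, an alpha tubulin, differed by 1.14 ± 0.20, and the ubiquitin-conjugating enzymes Ube2d1 and Ube2b by 1.44 ± 0.24 and 0.63 ± 0.12. Of the genes in this paragraph, Slc16a3 and Cacna2d1 had a muscle-poor mean below the filter (7.29 and 7.42). These were tested only through the muscle-rich arrays.

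**Figure D3:**
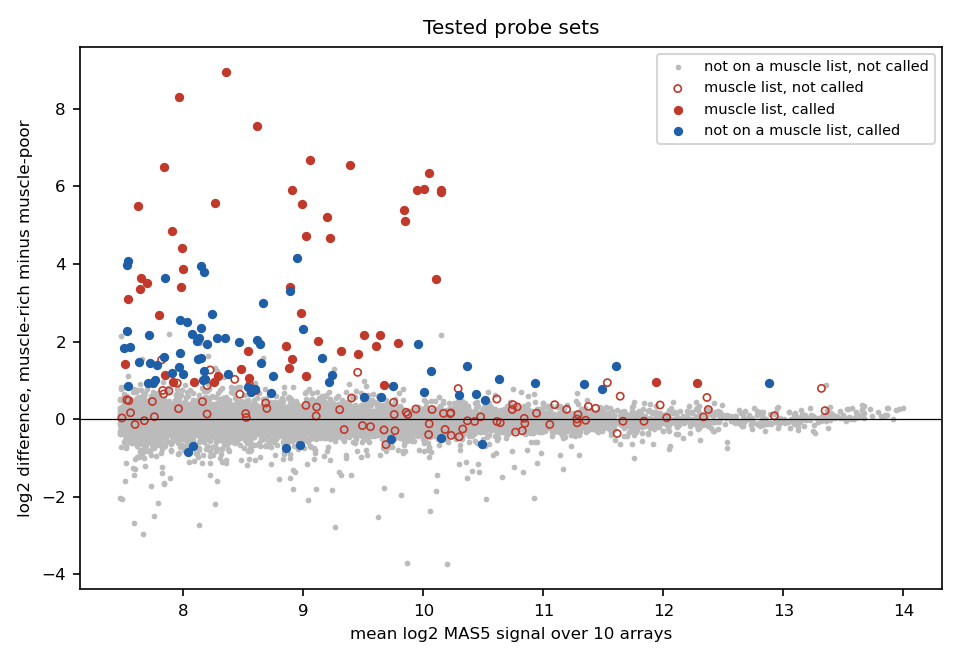
Difference in log2 signal, muscle-rich minus muscle-poor (vertical axis), against the mean log2 signal over the 10 arrays (horizontal axis) for the 9520 tested probe sets, 1 point each. Of the 124 probe sets called higher, 55 are on muscle lists (filled red), and the points called but not on a muscle list (blue) include unnamed probe sets and 6 named genes that were lower.

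Of 13 tested nerve and Schwann cell genes 1 was called higher, against 1.3% of all tested probe sets, and 7 were higher at an unadjusted p under 0.05, against 5.72%. Mbp, myelin basic protein, was at 10.20 in casein 18, 10.34 in casein 7, 10.52 in soy 155, 10.69 in casein 20, 10.70 in casein 10 and up to 10.89 in soy 159, and at 11.12 in soy 147, 11.21 in casein 6, 11.41 in soy 157 and reached 12.24 in soy 149. The groups did not overlap and the difference was 0.94 ± 0.21 (limma adjusted p = 0.047). It kept its call in 7 of 24 alternatives, and its adjusted p was 0.12 without casein 6 and soy 149 and 0.24 without casein 7 and soy 155. Prx, periaxin, another protein of the myelin of peripheral nerve, was at 7.70 to 8.16 and at 8.32 to 9.25, a difference of 0.79 ± 0.18 that did not pass (limma adjusted p = 0.05, not below the threshold). On average 10 of the 13 were higher, with a median of 0.42, or 0.19 without casein 6 and soy 149. Among the higher ones Cldn19, Mal and Pmp22 differed by 1.12, 0.78 and 0.42 without a call, and Erbb3 by only 0.08. The 3 lower ones were Egr2 (-0.6), Cnp (-0.12) and S100b (-0.12), also without a call. Sox10 and Ngfr, both below the filter, differed by 0.02 and -0.03. Whether the muscle-rich arrays held more Schwann cells was not tested. The axon markers Nefl, Nefm and Nefh had differences of 0.19, 0.39 and -0.39 and were below the filter.

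Cdkn1a, the cell cycle inhibitor p21, was the 1 called gene among 21 tested genes of glucocorticoid and stress response, where 1.3% of all tested probe sets were called higher. It was at 9.12 to 9.41 in the muscle-poor arrays and at 9.60 in casein 6, 9.64 in soy 147, 10.01 in soy 157 and up to 10.12 in soy 149. The difference was 0.57 ± 0.12 (limma adjusted p = 0.041), and it was called in 8 of 24 alternatives. The median of its list was 0.04.

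The 6 genes called lower differed by small amounts. Tmsb15b2, a thymosin beta, which binds actin monomers, was at 8.06 to 8.59 in the muscle-poor arrays and at 7.17 in casein 6, 7.50 in soy 157, 7.54 in soy 147 and reached 7.94 in soy 149, a difference of -0.83 ± 0.16 (limma adjusted p = 0.022). L3mbtl3, a chromatin reader, was at 8.16 to 8.57 and 7.43 to 7.75 (-0.70 ± 0.13, limma adjusted p = 0.015). Rab35, a small GTPase of endosome recycling, differed by -0.66 ± 0.14, and Cyrib, an inhibitor of Rac1 signalling to actin, by -0.64 ± 0.12. Eef1e1, a scaffold subunit of the aminoacyl-tRNA synthetase complex, differed by -0.51 ± 0.10, and Usp5, a deubiquitinating enzyme, by -0.47 ± 0.09. None of the 6 overlapped between the groups, where 2.15% of all tested probe sets lay lower without overlap. The number of lower calls under other settings ran from 1 among the soy arrays to 130 without soy 157.

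Next in order of p among lower genes, without a call, were Prr13 (-0.36), Snrpa1 (-0.66) and Ccnc (-0.43), with limma adjusted p of 0.05, 0.05 and 0.051. Lcp2, an adaptor of T cell receptor signalling, was at 8.03 to 9.04 in the muscle-poor arrays and at 5.45 in soy 149, 6.57 in casein 6, 7.58 in soy 147 and up to 7.74 in soy 157 (-1.68 ± 0.39, limma adjusted p = 0.057).

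**Figure D4:**
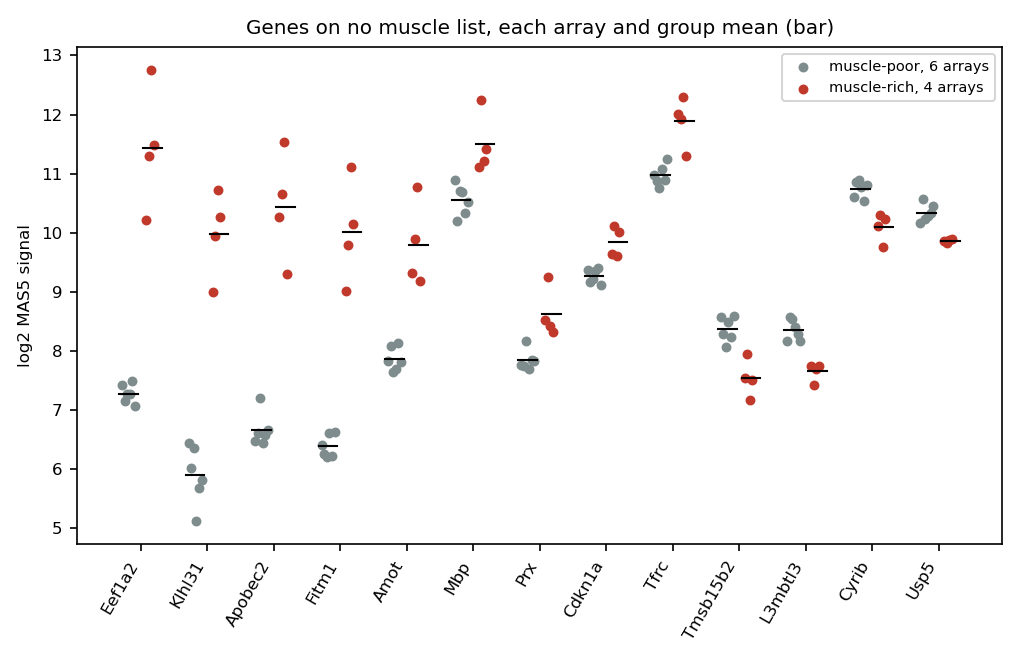
Log2 MAS5 signal (vertical axis) of 13 genes on no muscle list (horizontal axis), 1 point per array, grey for the 6 muscle-poor and red for the 4 muscle-rich arrays, with a bar at each group's mean. Eef1a2, Klhl31, Apobec2 and Fitm1 are separated by more than 3 units, while Mbp, Prx and Cdkn1a differ by less than 1 unit and Tmsb15b2, L3mbtl3, Cyrib and Usp5 lie lower in the muscle-rich arrays.

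Lymph node and lymphocyte genes were lower on average in the muscle-rich arrays, and the low values lay in 2 of the 4. Of 23 tested genes 23 were negative, with a median of -1.43, and 0 were called by limma, at a background of 0.075% called lower. At an unadjusted p under 0.05 there were 17 of the 23, against 10.8% of all tested probe sets in that direction. Cd3d, a chain of the T cell receptor complex, was at 9.87 to 11.12 in the muscle-poor arrays and at 4.96 in casein 6, 5.03 in soy 149, 9.68 in soy 147 and reached 10.73 in soy 157. Cd79b, a chain of the B cell receptor, was at 8.65 to 9.78 and at 3.41, 4.32, 8.82 and 9.42 in the same 4 arrays. Casein 6 and soy 149 were thus low, and without them the list's median was -0.07. Leaving out soy 157 alone, 16 of the 23 were called lower, against 149 of all 9520 tested probe sets in that setting. The part of lymph node tissue in the counts of called genes was not tested.

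Epithelial and milk genes also followed particular arrays. The 12 tested luminal epithelium genes had a median of -0.53, which became 0.45 without casein 6 and soy 149. By limma 0 were called, and 0 had an unadjusted p under 0.05, against 1.38% and 16.5% of all tested probe sets. Krt18, a luminal keratin, was at 4.49 in casein 6 and 7.64 in soy 149, at 9.88 in soy 147 and 9.47 in soy 157, and at 7.39 in soy 159 and 8.99 to 10.93 in the other muscle-poor arrays. Epcam, an epithelial adhesion protein, was lowest in soy 159, at 4.53, against 7.67 in casein 6, 7.98 in soy 149 and 8.89 to 11.72 in the muscle-poor arrays other than soy 159. Glycam1, a mucin-like protein of milk and of lymph node venules, was at 7.40 in soy 149 and 7.81 in casein 6 and at 11.19 to 12.10 in the other 8. The luminal markers Krt18 and Epcam were therefore low in soy 159, a muscle-poor array, and in casein 6 and soy 149, both muscle-rich, while Glycam1 was low only in the latter pair. Basal and myoepithelial genes had a median of -0.04, which became 0.53 without casein 6 and soy 149, and milk protein and secretory genes -0.51, which became 0.04.

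Fat and lipid synthesis genes gave 0 calls in limma. At an unadjusted p under 0.05, 1 of 22 adipocyte, 5 of 28 fat synthesis and 4 of 16 cholesterol genes were lower, against 10.8% of all tested probe sets. The 22 tested adipocyte genes had a median of -0.10. Among the 28 tested genes for making fatty acids and triglycerides 26 were negative, with a median of -0.25, against -0.05 over all tested probe sets. Acly, ATP citrate lyase, which makes cytosolic acetyl-CoA, was at 11.12 in soy 147, 11.13 in soy 157, 11.36 in casein 6 and up to 11.42 in soy 149, and at 11.43 to 12.90 in the muscle-poor arrays, highest in casein 18. The groups nearly touched, and Acly did not pass (limma adjusted p = 0.27). Agpat2, an acyltransferase of triglyceride synthesis, differed by -0.68 ± 0.25 (limma adjusted p = 0.22), and the arrays overlapped. Of 16 tested cholesterol genes 13 were negative, with a median of -0.21. Among the soy arrays alone 19 of the 28 fat synthesis genes were negative.

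Respiratory chain genes, which every cell uses, were mostly higher by little. Of 46 tested genes 42 were positive, with a median of 0.11. By limma 0 were called, at a background of 0.612% called higher, and 3 were higher at an unadjusted p under 0.05, against 5.72% of all tested probe sets. Ndufa4, a cytochrome c oxidase subunit, was at 11.96 to 12.15 and 12.19 to 12.35, a difference of 0.22 ± 0.08 (limma adjusted p = 0.23). The count of positive genes was 26 of 46 without casein 6 and soy 149 and 12 of 46 among the soy arrays. Cytosolic ribosomal proteins had a median of 0.00, with 20 of 39 positive.

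Skin genes marked soy 147. Sprr1a, a cornified envelope protein, was at 6.63 to 7.2 in the muscle-poor arrays, 7.67 in casein 6, 7.96 in soy 157, 8.22 in soy 149 and reached 12.91 in soy 147. Calml5, a calcium-binding protein of differentiating epidermis, was at 10.24 in soy 147 and at 7.37 to 7.95 in the other 9. Of the defining epidermal keratins Krt1 and Krt10 the signal in soy 147 was 7.03 and 6.97, inside the range of the other arrays. Soy 147 was also the lowest muscle-rich array for most muscle genes.

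Of the remaining lists, tendon and fascia had a median of 0.13, endothelium 0.16, fibroblasts and matrix 0.11, macrophages and myeloid cells -0.09, mast cells 0.05, blood cells -0.03, and growth factor signals -0.03. Over these 7 lists limma called 0 of 106 tested genes, and 8 had an unadjusted p under 0.05, against 16.5% of all tested probe sets. Smooth muscle and pericytes had a median of -0.07. Of its 18 tested genes 2 were called higher, against 1.3% of all tested probe sets. These calls, Des and Synpo2, are genes that skeletal muscle also makes. Notch3, a receptor of pericytes and smooth muscle, was at 8.48 to 9.02 and 9.07 to 9.31, without overlap and without a call (0.52 ± 0.12, limma adjusted p = 0.055). The brown adipocyte list had 1 call among 4 tested genes, against the same 1.3%, namely Fabp3, a fatty acid binding protein of heart and muscle. The cell cycle list had 23 of 26 negative with a median of -0.26, or -0.06 without casein 6 and soy 149. Limma called 0 of them, and 7 were lower at an unadjusted p under 0.05, against 10.8% of all tested probe sets.

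**Figure D5:**
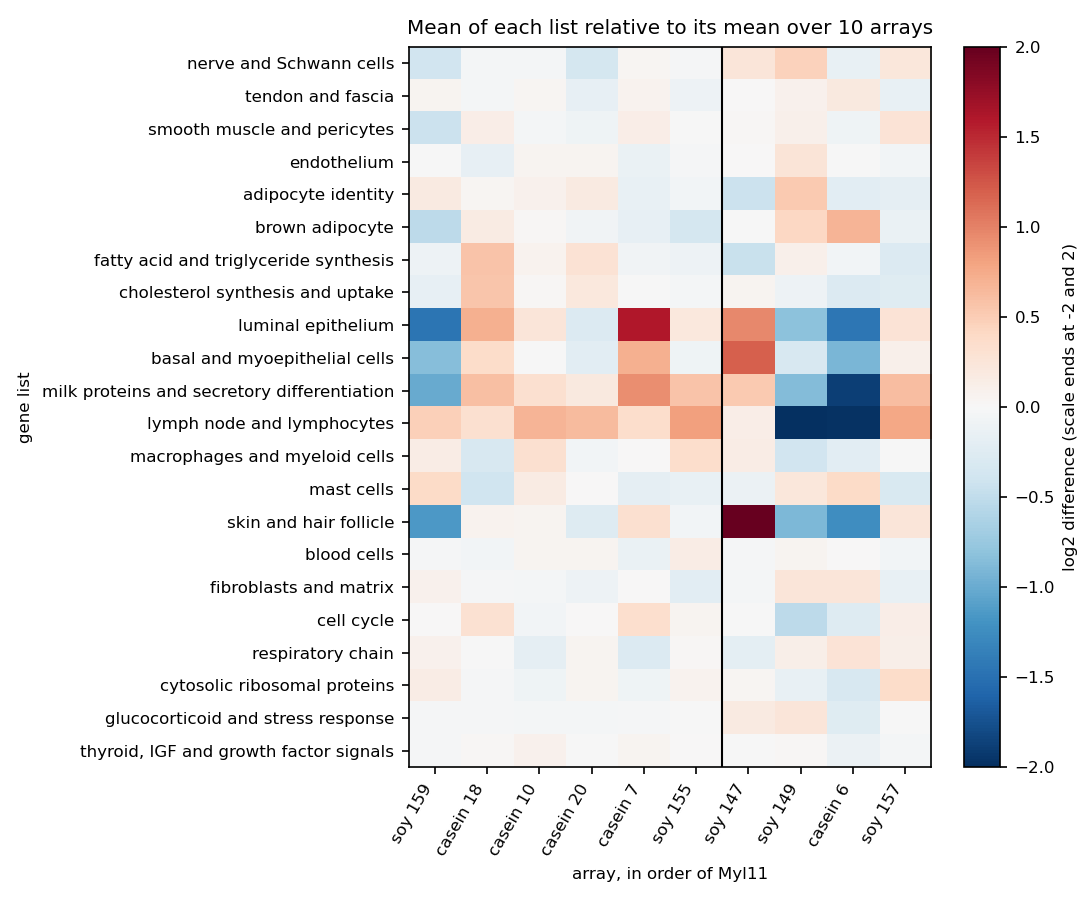
Mean log2 signal of the tested genes of each of 22 other lists (rows) in each array (columns, in order of Myl11), relative to the list's mean over the 10 arrays, with colours from -2 (blue) to 2 (red) and the muscle-rich arrays right of the line. The lymph node list is lowest in casein 6 and soy 149, with a mean log2 signal of 7.57 and 7.35 against 9.69 and 10.32 in soy 147 and soy 157, and the skin list is highest in soy 147.

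RNA quality and diet were set beside the split. The 3′ to 5′ signal ratio of the beta-actin control probe sets, on the log2 scale, was 0.41 to 0.56 in the muscle-rich and 0.29 to 0.65 in the muscle-poor arrays (exact permutation test, two-sided p = 0.74), and that of GAPDH 0.19 to 0.42 and 0.18 to 0.64 (p = 0.37, exact permutation test). Both have an adjusted p of 0.74 over the 2 ratios, and the smallest p that the 210 assignments allow is 0.0048. Of the muscle-rich arrays 1 was casein and 3 were soy, and of the muscle-poor 4 and 2 (Fisher's exact test, two-sided p = 0.52). The interaction of split and diet passed for 0 probe sets in limma, with 948 at an unadjusted p under 0.05 (9.96%), and it rests on a single muscle-rich casein array. Without soy 149 it passed for 163.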

How the data were processed

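Gene expression was measured in 10 samples on 1-colour oligonucleotide arrays. The authors deposited linear intensity values (signals), 1 per probe set. Per the submitters' processing notes MAS5 made them, and its version is not given in the sources used. The 2% trimmed mean of the deposited signals was 500.1 on each array, so this scaling was kept. Values were floored at 1 before log2. Of 15866 probe sets other than controls, the platform annotation named 1 gene for 12783, several for 312 and none for 2771. To be tested, a probe set needed a mean log2 signal at or above the 40th percentile, 7.47 (a signal of 177.1), and 9520 passed. Detection calls were not used here.

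Groups were set by Myl11 as stated above. Differences are muscle-rich minus muscle-poor on the log2 scale, fitted with limma 3.58.1 in R 4.3.3 (two-sided moderated test from eBayes with trend after lmFit; Benjamini-Hochberg over the tested probe sets, threshold 0.05). The brightest probe set stood for a gene. Each ± is a standard error. No result rests on paired samples, since the diets share no replicate number, and the labels give no batch. Precision is limited by the number of arrays, with a median standard error of 0.14. The steps were tested on simulated data.

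The members of the groups and the 31 gene lists were chosen with earlier results of these data known. Genes named by rule were the markers, the 4 tested genes of each muscle list with the largest difference, fast and slow partner genes, the 15 higher and 15 lower genes on no muscle list, and the tested genes of smallest p of each other list, which were narrowed to 4 for lists with a call and lymph node and 2 for the others after the values were seen. Muscle genes below the filter and the other genes named were chosen after their values were seen. The alternatives were other scalings, filters and variance models, array weights, diet or the actin ratio as covariate, and leaving out arrays.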

Additional observations from a re-analysis of the deposited data

Results flagged for a closer look

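In 302 sets of values of a named gene in 1 group, a single array stood far from the others of its group in 13. For independent and unselected values, 1 in 20 would be 15.1 of 302. The sets share the same 10 arrays, and many of the genes were named by their values. The count therefore cannot be tested against that rate. Among the muscle-rich arrays these were Tnnc1 at 9.89 in casein 6, next to 7.24 in soy 149, Sprr1a at 12.91 in soy 147, next to 8.22, and Ephx2, an epoxide hydrolase, at 8.58 in soy 149, next to 7.91. Among the muscle-poor arrays, muscle-list genes with such an array were Sgcb, a sarcoglycan, at 2.72 in casein 7 while the other 5 lay at 7.88 to 8.32, Myh2 at 3.54 in casein 18, and Eno3, muscle enolase, at 7.47 in soy 155. Apobec2 was at 7.21 and Prx at 8.16, both high in casein 10. Sh3bgr was at 8.11 and the ribosomal protein gene Rps3 at 13.42, both high in soy 159. Cldn19, a claudin of Schwann cells, was low in casein 20 at 5.96, Acat2, a thiolase of cholesterol synthesis, was high in casein 18 at 9.83, and Laptm5, a lysosomal protein of blood cells, was high in soy 155 at 11.27.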

How the results depend on the processing

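The count of called probe sets, 131 as reported, was 252 without a filter, 57 with the filter at the 60th percentile, 75 without casein 7 and soy 155, 48 among the soy arrays alone, and 102 to 303 when single arrays were left out, with 289 without soy 147 and 303 without soy 157. For genes on no muscle list, the 49 higher calls became 90 without a filter, 18 at the 60th percentile, 27 without casein 6 and soy 149, 23 without casein 7 and soy 155, 11 among the soy arrays, and 32 to 92 with single arrays left out. The 6 lower calls became 11 after quantile normalization, 16 after median centring, 15 without a filter, 3 at the 60th percentile, 13 with diet as a covariate, 2 without casein 7 and soy 155, 1 among the soy arrays, and 3 to 130 with single arrays left out. Median centring gave 110 higher and 20 lower calls against 124 and 7. The interaction with diet passed for 4 probe sets with array weights and for 0 to 163 with single arrays left out. The filters and the settings without arrays tested other numbers of probe sets or samples, and for the rest the cause was not tested.

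Signs turned for Hbb (-0.07 after quantile normalization, -0.04 with diet as a covariate, -0.03 without soy 149, and -0.03 to 0.18 with single arrays left out), Bpgm (0.01 without casein 10 and 0.01 without soy 147, and -0.11 to 0.01 with single arrays left out) and Elovl6 (0.16 among the soy arrays). They also turned for Krt18 (0.27 without casein 6 and soy 149, 0.40 among the soy arrays), and, without casein 6 and soy 149, for Glycam1 (0.04), Mfge8 (0.04) and Tpsab1 (-0.15). None of these genes was called. The actin ratio difference was 0.013 without casein 6 and soy 149, and -0.074 to 0.000 with single arrays left out. No paired analysis was possible because the diets share no replicate numbers. Signals near the floor carry no detection call here, so low values in the muscle-poor arrays have no tested order.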
